A study of Mus musculus with 16 samples.

Results

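Laminins, nidogens and basement membrane proteoglycans were followed in inguinal white adipose tissue (iWAT) as 10 genes chosen by name, Lama2, Lama4, Lama5, Lamb1, Lamb2, Lamc1, Nid1, Nid2, Hspg2 and Agrn, among 54532 genes in the deposited table. All 10 were found and all 10 passed the filter on low read numbers in every comparison. The basement membrane is the thin matrix sheet that surrounds each adipocyte and underlies capillaries and nerves. Laminins are trimers of an alpha, a beta and a gamma chain that assemble into one of its networks on the cell surface. Nidogens and the heparan sulfate proteoglycans perlecan and agrin tie that network to the type IV collagen network and to cell receptors.

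RNA-seq was carried out on 16 iWAT libraries from male mice, with 4 libraries in each of 4 groups. In both transgenic groups the adiponectin promoter drives the reverse tetracycline transactivator (Apn-rtTA) in adipocytes, and doxycycline switches on a TRE transgene there, either mouse Has2, a hyaluronan synthase (Has2_TG), or PH20, the hyaluronidase encoded by Spam1 (PH20_TG). The Has2_WT and PH20_WT controls were littermates labelled WT, which the study names as Apn-rtTA controls, with no TRE transgene in that name. All animals, controls included, were 8 to 10 weeks old at the start and ate chow with 200 mg/kg doxycycline for 5 days. Nothing in the labels says that a library pools animals, and p-values measure the spread between these libraries.

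Library depth was 14421692 to 26751729 reads on genes. Has2 was at 1.86 to 3.24 FPKM (fragments scaled to gene length and library total) in Has2_TG and at 0.417 to 0.806 in Has2_WT. In the PH20 study Has2 was at 0.330 to 0.897 FPKM in PH20_WT and at 3.32, 0.38, 0.099 and 3.26 FPKM in PH20_TG1 to PH20_TG4. Spam1 was at 0.136, 0.324 and 0.158 FPKM in PH20_TG2 to PH20_TG4, from only 6, 12 and 5 reads. It had no read in the library labelled PH20_TG1, a count of 0 that allows up to 3 reads, nor in the 12 libraries of the other groups. The comparison of PH20_TG with PH20_WT is therefore given with all libraries and again without PH20_TG1. PH20_TG1 and PH20_TG4 both had Has2 above every Has2_TG library. PH20_TG4 held 5 Spam1 reads and was kept. No fit without both libraries is given, which limits all results of the PH20 study and its comparison with the Has2 study. The adipocyte marker Adipoq was at 751 to 1748 FPKM across the 16 libraries. Libraries Has2_WT1, Has2_WT2, PH20_WT1 and PH20_WT3 stood apart by the B cell gene Cd79a, at 50.6 to 123 FPKM against at most 2.14 in the other 12. Summed FPKM of 10 skeletal muscle markers ranged from 7.92 to 1022.

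Nid1 and Lamc1 gave the most abundant of the 10 mRNAs per length, and Lama2 and Lama5 the least. Averaged over all 16 libraries, Nid1, the main nidogen, was at 91.0 ± 27.8 FPKM (SD, n = 16). Lamc1, the gamma chain shared by most laminins, followed at 49.0 ± 13.2 FPKM. Lamb2 at 42.1 FPKM and Hspg2 (perlecan) at 41.8 FPKM could not be ordered, since Lamb2 was the higher one in 8 of 16 libraries. The beta chain Lamb1 at 21.2 FPKM and Lama4 at 18.9 FPKM were also close, with Lamb1 higher in 11 of 16. Below them came Nid2 at 10.6, Agrn (agrin) at 6.32, Lama5 at 4.16 and Lama2 at 3.59 FPKM. The order of Lama5 and Lama2 changed with the group. Lama5 was the higher one in all 4 Has2_WT, 3 of 4 PH20_WT and all 4 PH20_TG libraries, and the lower one in all 4 Has2_TG libraries. Lama4, the alpha chain typical of vessels and adipocytes, made up 71.2% ± 4.94 of the summed FPKM of Lama2, Lama4 and Lama5, and Lamb2 made up 65.5% ± 6.55 of the summed FPKM of both beta chains. Spread over libraries differed widely between genes. Lama2 varied 6.42-fold between its lowest and highest library, and Agrn only 1.41-fold.

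**Figure D1:**
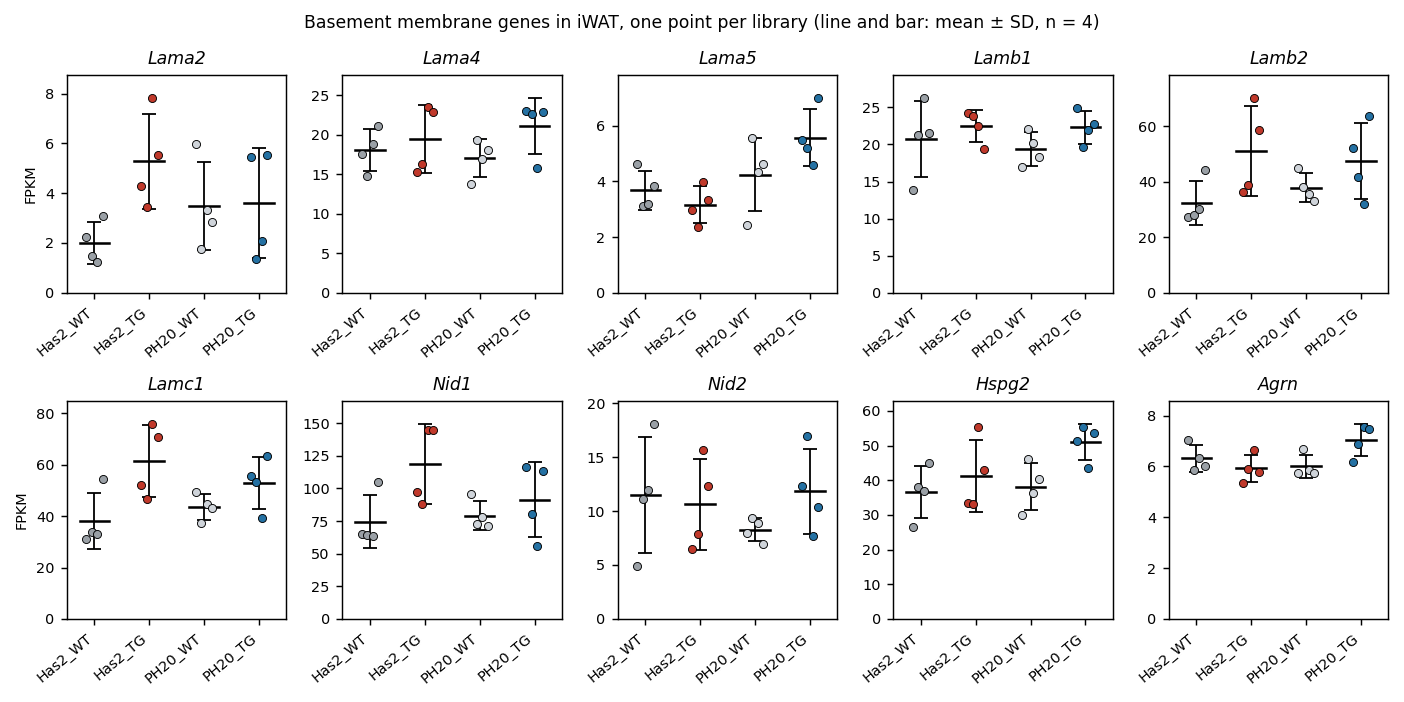
FPKM of each gene in every library, 4 libraries in each of the groups Has2_WT, Has2_TG, PH20_WT and PH20_TG, with a line at the group mean and a bar for the SD (linear axes from 0, a separate scale for each gene). Lama2 in Has2_TG lies between 3.45 and 7.82, above all 4 Has2_WT libraries, while the groups of the other genes overlap within each study.

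Further laminin subunit genes were low. Lama1 had no read in any control library and at most 0.012 FPKM in a transgenic one. Mean levels over 16 libraries were 0.260 FPKM for Lama3, 1.28 for Lamb3 and 2.37 for Lamc3. Skin and other epithelia are the usual sites of Lama3 and Lamb3. Of the epithelial markers, 2 of 10 passed the filter in the Has2 study and 1 of 10 in the PH20 study.

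Each of the 10 genes has a single annotated locus on GRCm38. Lama2 lies at chr10:26980036-27619758 on the minus strand and its longest coding transcript has 65 exons. Lamb2, a compact gene of 33 exons, lies at chr9:108479736-108490530 on the plus strand. Lamc1 lies at chr1:153218922-153332786 on the minus strand with 28 exons, Nid1 at chr13:13437551-13512269 on the plus strand with 20 exons, and Hspg2 at chr4:137468769-137570630 on the plus strand with 97 exons. Annotated genes on the opposite strand overlap Lama2, Lamc1, Nid1 and Nid2, in the last case the protein-coding Rtraf, and since the strand setting of the counting is not given in the sources used here, their reads cannot be told apart from those of the partner.

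RefSeq start-site windows (GRCm38.p6) were at hand for 7 of the 10 genes, all but Lama4, Lamc1 and Nid2. The upstream sequences of the 4 genes with a window that passed a test in either study are shown. Each is written 5′ to 3′ on the strand of the gene, without bases that lie in an annotated exon, and capitals mark motif matches on either strand. The motifs were the GC box, spelled GGGCGG, the CCAAT box, the TATA letters TATAAA and the AP-1 letters TGANTCA, which do not overlap in these windows. The Lama2 window belongs to a RefSeq transcript that starts inside the annotated gene, so it is not the sequence before the annotated start.
Lama2 (chr10:27616943-27617192, - strand): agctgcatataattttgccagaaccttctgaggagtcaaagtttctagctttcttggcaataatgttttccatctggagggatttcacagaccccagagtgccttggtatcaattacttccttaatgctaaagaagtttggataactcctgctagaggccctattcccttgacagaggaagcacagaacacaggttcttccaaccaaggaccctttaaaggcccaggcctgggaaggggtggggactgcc
Lamb2 (chr9:108479612-108479735, + strand): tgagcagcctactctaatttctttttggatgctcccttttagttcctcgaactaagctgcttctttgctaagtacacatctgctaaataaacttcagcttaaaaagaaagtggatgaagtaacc
Nid1 (chr13:13437352-13437550, + strand): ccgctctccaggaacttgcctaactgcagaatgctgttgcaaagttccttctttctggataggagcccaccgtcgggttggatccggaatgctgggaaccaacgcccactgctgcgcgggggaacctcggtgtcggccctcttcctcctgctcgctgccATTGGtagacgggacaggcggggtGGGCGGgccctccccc
Hspg2 (chr4:137468553-137468768, + strand): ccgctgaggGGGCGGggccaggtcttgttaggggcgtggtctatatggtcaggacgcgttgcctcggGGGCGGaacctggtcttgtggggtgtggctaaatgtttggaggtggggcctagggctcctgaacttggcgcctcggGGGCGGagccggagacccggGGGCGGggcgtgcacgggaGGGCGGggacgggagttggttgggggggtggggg
These windows had little in common. Over the full 250 bases, GC content was 47.2% for Lama2 and 43.6% for Lamb2, against 64.4% for Nid1 and 70.0% for Hspg2, with a median of 52.4% over 32851 RefSeq windows. Hspg2 held 5 GC boxes and Nid1 held 1, and 5 of the 7 genes with a window had at least 1, as did 32.7% of all windows. A CCAAT box was present in 2 of 7 (Lamb1 and Nid1), against 33.8% of all windows. Neither the TATA nor the AP-1 letters occurred in any of the 7, against 12.4% and 6.75% of all windows. The Lama2 and Lamb2 windows matched none of these 4 motifs.

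The first comparison asked how the 10 genes responded to adipocyte overexpression of Has2. Lama2, Lamb2, Lamc1 and Nid1 were higher in Has2_TG than in Has2_WT at an unadjusted p under 0.05, by 1.55- to 2.59-fold, and none was lower. These encode an alpha, a beta and a gamma chain and the nidogen that binds the gamma chain. The 4 of 10 called compare with 10.0% of 12606 genes called in either direction, 6.25% called higher and 3.75% called lower. None of the 10 passed an adjusted p of 0.05, which 0.103% of genes did. As a median the 10 genes had 0.16 on the log2 scale, against -0.03 over all genes.

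Lama2, the alpha chain of muscle, nerve and fibroblast basement membranes, was at 2.24, 1.47, 1.22 and 3.07 FPKM in Has2_WT1 to Has2_WT4. It was at 4.27, 3.45, 7.82 and 5.55 FPKM in Has2_TG1 to Has2_TG4. Every transgenic library was above every control library, which held for 4.08% of all genes, while 2.11% were separated with lower values in Has2_TG (6.19% in all). The log2 fold change was 1.37 ± 0.34 (SE; 95% confidence interval 0.61 to 2.14, limma adjusted p = 0.142).

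Lamc1, the common gamma chain, was at 31.1, 33.9, 33.1 and 54.3 FPKM in the 4 controls and at 52.1, 46.8, 75.8 and 71.0 FPKM in the 4 transgenic libraries. Of the controls, 3 were below all transgenic libraries, and Has2_WT4 was above Has2_TG1 and Has2_TG2. Its log2 fold change was 0.70 ± 0.22 (0.19 to 1.20, limma adjusted p = 0.306). Nid1, whose product bridges laminin and type IV collagen, was at 64.8, 64.3, 63.6 and 105 FPKM in Has2_WT and at 97.0, 88.4, 145 and 145 FPKM in Has2_TG. The pattern was that of Lamc1, with Has2_WT4 again inside the range of the transgenic libraries, and the log2 fold change was 0.67 ± 0.23 (0.16 to 1.19, limma adjusted p = 0.347). Lamb2, the beta chain of mature basement membranes, was at 27.2, 28.0, 30.1 and 44.1 FPKM in Has2_WT and at 36.4, 38.8, 70.1 and 58.7 FPKM in Has2_TG. Here too only Has2_WT4 overlapped the transgenic range, and the log2 fold change was 0.63 ± 0.25 (0.08 to 1.18, limma adjusted p = 0.424).

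The other 6 genes did not pass the test. Lama4 was at 14.8 to 21.1 FPKM in Has2_WT and 15.3 to 23.5 in Has2_TG (log2 fold change 0.10, interval -0.33 to 0.52). Lama5, an alpha chain of epithelia and vessels, had a log2 fold change of -0.22 (-0.73 to 0.28). Lamb1, the beta chain of developing and vascular basement membranes, had 0.15 (-0.29 to 0.59), so the beta chains differed in their call, although the difference between them was not tested. Nid2 was widely spread among controls, from 4.89 to 18.1 FPKM, and its interval was -0.96 to 0.84. The proteoglycans Hspg2 and Agrn had log2 fold changes of 0.16 (-0.32 to 0.64) and -0.09 (-0.44 to 0.25).

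The beta and gamma chains and the nidogen kept their calls in fewer of the alternative fits than Lama2. Without Has2_WT1 and Has2_WT2, the B cell-rich controls, a choice made after seeing the data, 1 of the 10 genes was called, Lama2, at a log2 fold change of 1.33. Lamc1 then had 0.50, Nid1 0.51 and Lamb2 0.43, none of them called. That fit kept only Has2_WT3 and Has2_WT4 as controls. Has2_WT4 was the highest control for these genes, at 54.3, 105 and 44.1 FPKM. With so few controls, a lost call cannot be told apart from the effect of having fewer libraries. Without Has2_WT4 alone the estimates were 0.88, 0.85 and 0.79, the highest of the fits that left out 1 library. Lama2 stayed called when any one of the 8 libraries was left out, at log2 fold changes of 1.17 to 1.60, and so did Lamc1 at 0.59 to 0.88. Nid1 lost its call without Has2_TG4 (0.57). Lamb2 lost it without any of Has2_WT1, Has2_WT2, Has2_WT3, Has2_TG3 or Has2_TG4, at 0.46 to 0.60.

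**Figure D2:**
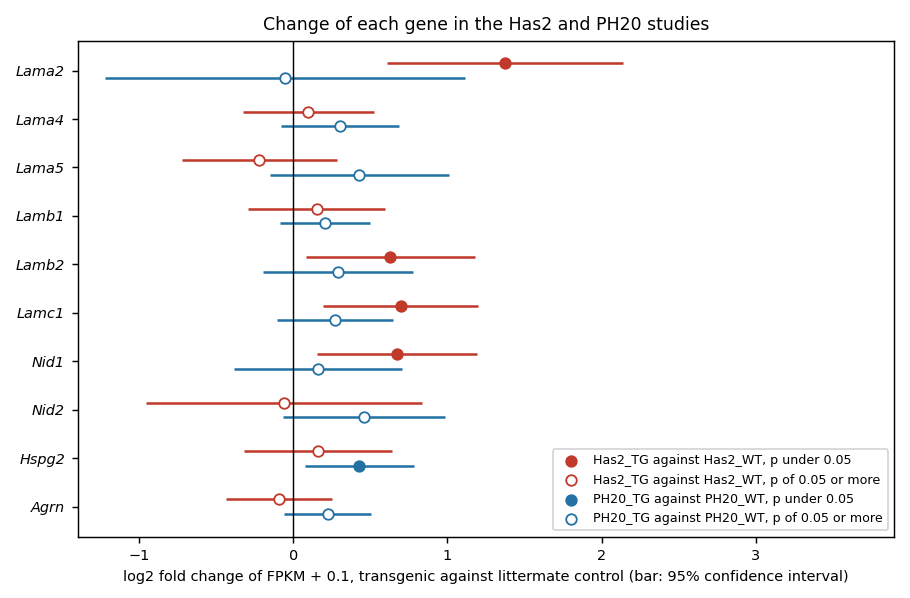
Log2 fold change of FPKM + 0.1 in transgenic against control libraries (horizontal axis) for each of the 10 genes, red for Has2_TG against Has2_WT and blue for PH20_TG against PH20_WT, with bars for the 95% confidence interval (n = 4 per group) and filled points for an unadjusted limma p under 0.05. Lama2, Lamb2, Lamc1 and Nid1 are filled in the Has2 study and Hspg2 in the PH20 study.

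Ratios between the mRNAs of the complex, made of the same values as the tests above, were compared between Has2_WT and Has2_TG. Lama2 took 8.25% ± 2.43 of the summed alpha chain FPKM in Has2_WT (5.25% to 11.0%) and 18.5% ± 2.78 in Has2_TG (15.6% to 22.2%), without overlap. The share of Lama5 was 15.6% ± 2.49 in Has2_WT and 11.4% ± 1.23 in Has2_TG, also without overlap, whereas the ranges of the Lama4 share overlapped (71.8% to 80.9% and 66.6% to 73.7%). The summed alpha chain FPKM was 0.516 to 0.783 times that of Lamc1 in Has2_WT and 0.433 to 0.473 times in Has2_TG. Perlecan relative to the gamma chain was lower as well, with a ratio of Hspg2 to Lamc1 of 0.828 to 1.13 in Has2_WT and 0.605 to 0.729 in Has2_TG. In contrast, the ratio of Nid1 to Lamc1 was 1.96 ± 0.083 in Has2_WT and 1.93 ± 0.079 in Has2_TG, and over all 16 libraries it stayed between 1.43 and 2.09. These ratios were not tested, and no share over all genes stands beside them. The PH20_WT controls alone spanned 6.58% to 26.9% for the Lama2 share and 10.9% to 20.8% for the Lama5 share. Their ratios to Lamc1 spanned 0.449 to 0.716 for the alpha sum and 0.606 to 1.24 for Hspg2. With reads not divided by length, Has2_WT and Has2_TG again did not overlap for the Lama2 and Lama5 shares and both ratios to Lamc1. The Lama4 shares of Has2_WT and Has2_TG then narrowly ceased to overlap.

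**Figure D3:**
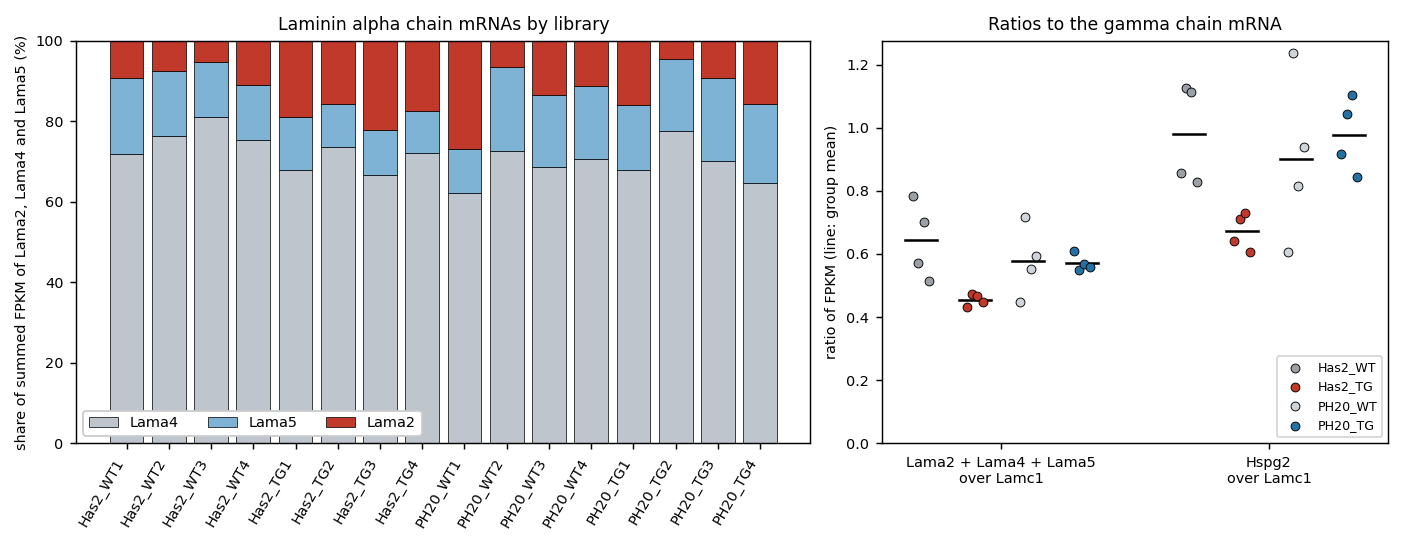
Left, share of Lama4, Lama5 and Lama2 in the summed FPKM of these 3 alpha chains in each of 16 libraries (stacked bars, percent). Right, ratio of the summed alpha chain FPKM and of Hspg2 FPKM to Lamc1 FPKM, one point per library and a line at each group mean (n = 4), with both ratios in Has2_TG (0.433 to 0.473 and 0.605 to 0.729) below every Has2_WT library.

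The second comparison asked how the same genes responded to adipocyte expression of PH20. Hspg2 was higher in PH20_TG than in PH20_WT by 1.34-fold and the other 9 genes did not pass the test. The 1 of 10 called compares with 6.59% of 12532 genes called in either direction, 3.20% called higher and 3.39% called lower. A count of 1 is near the share over all genes. No gene passed an adjusted limma p of 0.05, while 826 had an unadjusted p under 0.05. All but Lama2 had a positive estimate, and the median was 0.28 on the log2 scale against 0.0090 over all genes. The groups overlapped for all 10 genes, whereas 2.21% of all genes were separated with higher and 2.33% with lower values in PH20_TG (4.54% in all).

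Hspg2, the large heparan sulfate proteoglycan of vessel and adipocyte basement membranes, was at 29.9, 46.0, 36.4 and 40.4 FPKM in PH20_WT1 to PH20_WT4. It was at 51.2, 55.5, 43.5 and 53.5 FPKM in PH20_TG1 to PH20_TG4, with only PH20_WT2 and PH20_TG3 crossing. The log2 fold change was 0.43 ± 0.16 (0.07 to 0.78, limma adjusted p = 0.703). Without the library labelled PH20_TG1 it was 0.42 and again the only call of the 10. It was no longer called without PH20_WT1, PH20_WT3, PH20_TG2 or PH20_TG4, at 0.31 to 0.41, nor without the B cell-rich controls PH20_WT1 and PH20_WT3 together, at 0.23. The latter fit kept only PH20_WT2 and PH20_WT4 as controls.

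Lama2 showed no common direction in this study. It was at 5.96, 1.75, 3.34 and 2.86 FPKM in PH20_WT and at 5.44, 1.34, 2.09 and 5.53 FPKM in PH20_TG, and its interval ran from -1.22 to 1.11 (log2 fold change -0.05). Leaving out 1 library moved it from -0.33 (without PH20_TG4) to 0.32 (without PH20_TG2), and it was also -0.33 without the library labelled PH20_TG1 and 0.43 without the B cell-rich controls. Both PH20_TG libraries with high Lama2, PH20_TG1 and PH20_TG4, were those with Has2 above 3 FPKM. Lamc1 was at 37.3 to 49.3 FPKM in PH20_WT and 39.5 to 63.5 in PH20_TG (log2 fold change 0.27, -0.11 to 0.65), Lamb2 had 0.29 (-0.20 to 0.77) and Nid1 had 0.16 (-0.39 to 0.70). Nid2 had the largest estimate of the 10 genes at 0.46 (-0.07 to 0.99), followed by Lama5 at 0.43 (-0.15 to 1.01). Lama4, Lamb1 and Agrn had 0.30 (-0.08 to 0.68), 0.20 (-0.09 to 0.50) and 0.22 (-0.06 to 0.50). The library PH20_TG3 was the lowest of its group for Lama4, Lama5, Lamb2, Lamc1, Nid1, Nid2 and Hspg2. Without it, 5 of the 10 genes were called higher, namely Lama4 (0.44), Lamb2 (0.46), Lamc1 (0.40), Nid2 (0.65) and Hspg2 (0.50). Without the library labelled PH20_TG1, Nid1 had 0.022, Lamb1 0.15, Lamb2 0.23, Lamc1 0.24, Lama4 0.25, Agrn 0.28, Nid2 0.42 and Lama5 0.43, none of them called, and the median of the 10 genes was 0.25.

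The responses of both studies were then set against each other. The change of Lama2 was greater in the Has2 study, by 1.43 ± 0.65 on the log2 scale (0.04 to 2.82, limma interaction term, adjusted p = 0.639), and for no other gene of the 10 was the unadjusted p under 0.05. Of 12593 genes 7.70% were called by this rule, 4.03% with a greater and 3.68% with a smaller change in the Has2 study, and none passed an adjusted p of 0.05, while 970 had an unadjusted p under 0.05. The Lama2 difference was called in 7 of the 16 fits that left out 1 library, where it ranged from 1.05 to 1.71, and was lost without Has2_WT2, Has2_WT3, Has2_TG3, Has2_TG4, PH20_WT1, PH20_WT3, PH20_WT4, PH20_TG2 or PH20_TG3. Without the library labelled PH20_TG1 it was 1.70 and called, and the difference for Agrn was called too, at -0.37. For Lamb2, Lamc1 and Nid1 the difference was 0.34 (-0.39 to 1.07), 0.43 (-0.19 to 1.04) and 0.52 (-0.23 to 1.26), so the calls in one study and not the other do not show that the studies differ. Lama5 and Agrn had the opposite sign, at -0.65 (-1.38 to 0.07) and -0.32 (-0.68 to 0.05). Between both control groups 10.3% of 12593 genes were called, 5.61% higher and 4.66% lower in Has2_WT, and none of the 10 was.

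Levels of several genes were correlated across libraries, most closely for Lamb2, Lamc1 and Nid1. Lamb2, Lamc1 and Nid1 varied together over the 16 libraries. Pearson's r was 0.94 for Lamb2 with Lamc1 (Spearman's rho 0.94), 0.93 for Lamc1 with Nid1 (rho 0.94) and 0.92 for Lamb2 with Nid1 (rho 0.92), each with a permutation p of 1e-05, the smallest that 100000 permutations can give, and an adjusted p of 0.00015 over 45 pairs for both measures. These r were 0.92, 0.92 and 0.91 without the 2 libraries farthest from the median of the first gene, and 0.97, 0.99 and 0.97 within the Has2 study and 0.88, 0.86 and 0.92 within the PH20 study. Lama2 followed Nid1 at r = 0.84 (rho 0.83, adjusted permutation p = 0.0010 and 0.0016), and r was 0.78 without the 2 farthest libraries, 0.93 within the Has2 study and 0.74 within the PH20 study. Lama4 followed Hspg2 at r = 0.78 (rho 0.77, adjusted permutation p = 0.0032 and 0.0070), with 0.70 without the 2 farthest libraries, 0.71 within the Has2 study and 0.92 within the PH20 study. In all, 14 of 45 pairs had an adjusted permutation p under 0.05 for Pearson's r. They also linked genes across these groups, with r of 0.68 for Lama4 with Lamb2 (0.79 without the 2 farthest libraries), 0.63 for Lamb2 with Hspg2 (0.45) and 0.60 for Lama4 with Lamc1 (0.64), so the passing pairs do not divide into separate sets. Levels within a library share its depth and its scaling. The permutations exchanged libraries across groups and studies, so differences between groups enter these p-values.

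Each gene was then set against cell type markers. The mean log2 level of 10 adipose progenitor markers, which include Pdgfra, Dpp4 and Pi16, ran almost in parallel with Lama2. Pearson's r was 0.93 over 16 libraries (rho 0.92, permutation p = 1e-05 and adjusted p = 0.001 over 100 relations for both), 0.96 without the 2 libraries farthest from the median, 0.97 within the Has2 study, 0.95 within the PH20 study and 0.93 for deviations from the group means. Nid1 followed these markers at r = 0.77 (rho 0.77, adjusted permutation p = 0.0307 and 0.0283), with 0.76 without the 2 farthest libraries, 0.88 within the Has2 study and 0.79 within the PH20 study. Lama2 also followed the macrophage markers at r = 0.80 (rho 0.79, adjusted permutation p = 0.0055 and 0.019), with 0.82 without the 2 farthest libraries and 0.87 and 0.83 within the studies. No other of the 100 relations passed an adjusted p of 0.05.

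Relations to vessel markers were weaker, and the plot of r by marker list gives them as a description. Hspg2, Lama5 and Lama4 had r of 0.69, 0.62 and 0.57 with the endothelial markers and 0.70, 0.63 and 0.61 with the mural cell markers, while Lama2 had 0.33 and -0.54. Without the 2 farthest libraries these r were 0.68, 0.76 and 0.49 with the endothelial markers and 0.55, 0.50 and 0.40 with the mural cell markers, and 0.13 and -0.32 for Lama2. The Lama5 relation to endothelial markers was 0.89 within the PH20 study and 0.03 within the Has2 study. Lamb2 and Lamc1 were near Lama4 with the endothelial markers over 16 libraries, at 0.56 and 0.52. Within the Has2 study Lamb2, Nid1, Lamc1 and Lama2 had 0.93, 0.92, 0.90 and 0.83, against 0.66 for Hspg2 and 0.79 for Lama4. Within the PH20 study they had -0.0065, -0.20, -0.090 and -0.28, against 0.67 for Hspg2 and 0.54 for Lama4. The endothelial markers thus did not set the same genes apart in both studies. With the B cell markers Hspg2 and Lamb1 had r of -0.63 and -0.66 (rho -0.41 and -0.45), which shrank to -0.31 and -0.24 without the 2 farthest libraries. Within the Has2 and PH20 studies r was -0.54 and -0.86 for Hspg2 and -0.68 and -0.63 for Lamb1. Whether these relations rest on the farthest libraries was not tested.

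**Figure D4:**
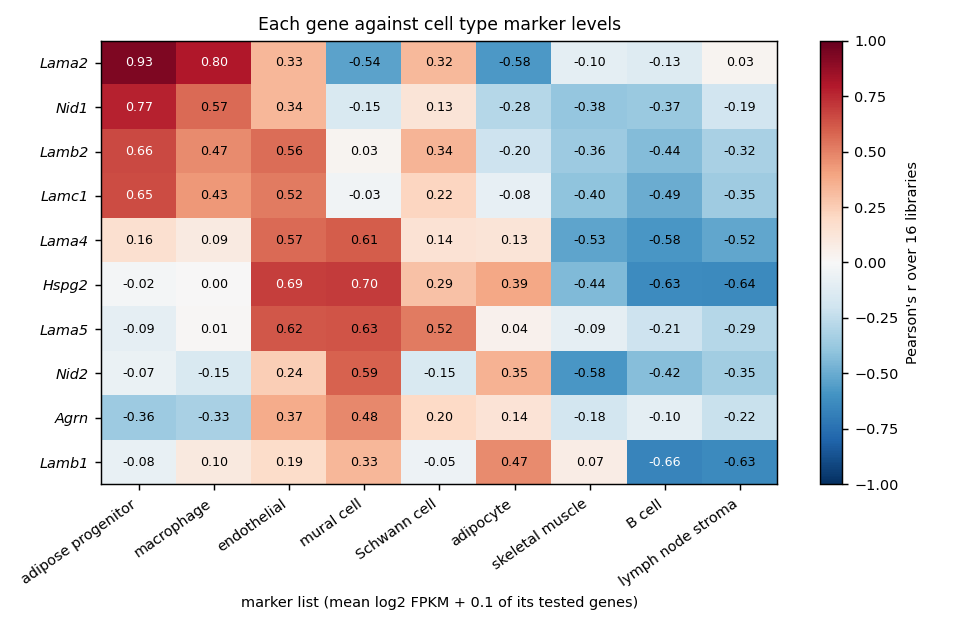
Pearson's r over 16 libraries between the log2 level of each gene (rows) and the mean log2 level of each cell type marker list (columns), red for positive and blue for negative. Lama2, Nid1, Lamb2 and Lamc1 have their highest r, 0.93 to 0.65, with adipose progenitor markers, and Hspg2, Lama4, Lama5, Nid2 and Agrn have theirs with mural cell markers.

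**Figure D5:**
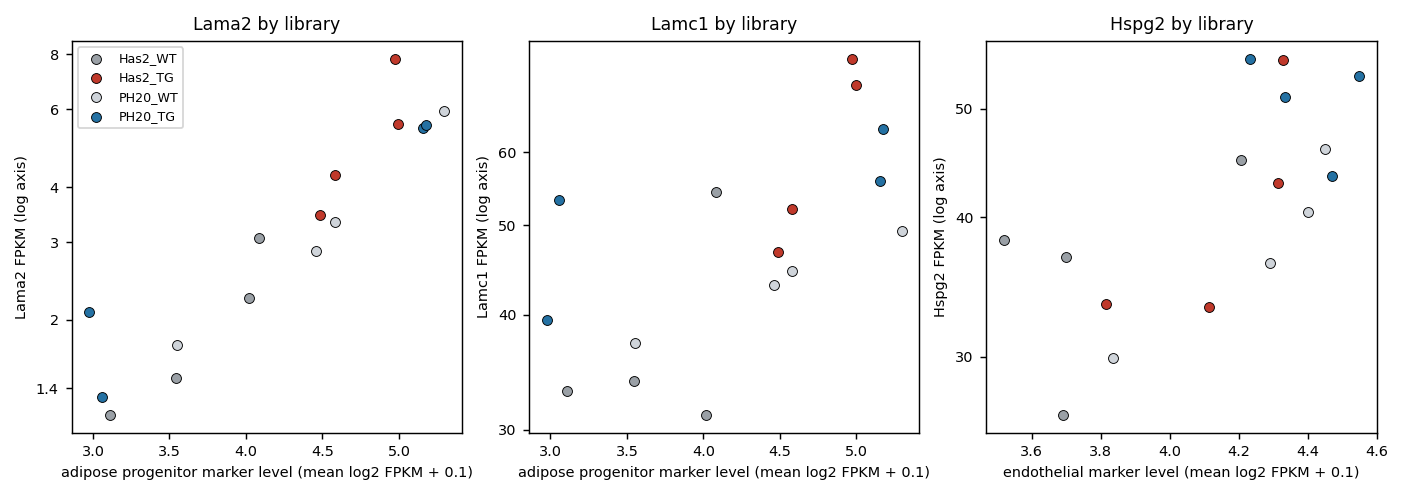
FPKM (log axis) of Lama2 and Lamc1 against the mean log2 level of adipose progenitor markers, and of Hspg2 against that of endothelial markers, one point per library and a colour for each of the 4 groups. Lama2 follows the progenitor markers (r = 0.93), whereas Lamc1 and Hspg2 scatter more (r = 0.65 and 0.69).

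These marker levels differed between the groups along with the genes. In the Has2 study 7 of 10 progenitor markers were higher and 0 lower in Has2_TG, and their median change was 1.37 on the log2 scale, as for Lama2 itself. Their summed FPKM was 185 to 387 in Has2_WT and 564 to 800 in Has2_TG, and none of the 10 lacked reads. Macrophage markers were higher for 6 of 10, with sums of 322 to 644 and 694 to 926 FPKM. The mean log2 level of the progenitor markers was 3.11 to 4.08 in Has2_WT and 4.49 to 5.00 in Has2_TG. Since these ranges did not overlap, a fit with that level as a covariate cannot tell the group from the marker level. In bulk tissue, more cells of a type and more RNA per cell cannot be told apart, and the part of cell composition in these results was not tested. Of the adipocyte markers 0 of 10 passed the test in either study, of the endothelial markers 1 of 10 was higher in each (Tek in Has2_TG and Egfl7 in PH20_TG). Of 8 tested mural cell markers 1 was lower in Has2_TG (Myh11) and 2 were higher in PH20_TG (Notch3 and Cspg4). These counts of 1 or 2 compare with 10.0% of all genes called in the Has2 study and 6.59% in the PH20 study. In the PH20 study 0 of 10 progenitor markers passed the test, with sums of 260 to 856 FPKM in PH20_WT and 182 to 870 in PH20_TG, and Lama2 was highest in the libraries highest in these markers in both groups. Skeletal muscle markers were lower in PH20_TG for 9 of 10, with sums of 244 to 1022 FPKM in PH20_WT and 10.0 to 291 in PH20_TG. B cell markers were lower for 4 of 10 in Has2_TG and 5 of 10 in PH20_TG, and all 4 B cell-rich libraries were controls. Without the library labelled PH20_TG1, 8 of 10 muscle markers and 3 of 10 B cell markers were lower in PH20_TG, 0 of 10 progenitor markers passed, and 7 of 10 macrophage markers were lower, where 0 of 10 had passed with it.

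The closest profiles to each of the 10 genes over the 16 libraries were taken as the highest Pearson's r among 12593 genes. For Lama2 they were Mmp2 (r = 0.98), which encodes a gelatinase, Dpep1 (0.98) and the proteoglycan gene Dcn (0.98). For Nid1 they were Adamts2, a procollagen N-proteinase gene (0.95), Dapk1 (0.95) and Antxr2 (0.95). For Lamc1 the first was Creb3l1, a secretory pathway transcription factor gene (0.94), before Lamb2 and Nid1. For Lamb2 they were Lamc1, Heg1 and Nid1, all between 0.92 and 0.94. For Lama5 the first was Dll4, a Notch ligand gene of endothelium (0.89), then Unc13b (0.86) and Nes (0.80). For Hspg2 they were Lrg1, Hdac5 and Tns2 (all 0.88), for Lama4 Auts2, Cald1 and Cdc42bpb (0.89 to 0.86), for Nid2 Itgb5, Anxa2 and Gamt (0.90 to 0.88), for Lamb1 Slc17a5, Rhob and Zfp703 (0.86 to 0.83), and for Agrn Inka1, Dap and Fam3a (0.80 to 0.77).

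The other networks of the basement membrane were examined with lists chosen by function. Of the 7 tested basement membrane collagen genes, 2 were higher in Has2_TG and 4 were higher in PH20_TG, and none was lower. Over all genes 10.0% were called in the Has2 study and 6.59% in the PH20 study, shares against which the counts of this and the following lists are to be read. In the Has2 study these were Col4a5 (log2 fold change 1.37 ± 0.38) and Col4a4 (1.09 ± 0.36), chains of the minor type IV collagen trimers. Col4a1 and Col4a2, which form the ubiquitous trimer, had -0.17 ± 0.20 and -0.20 ± 0.21 and did not pass. In the PH20 study Col4a1 (0.53 ± 0.21), Col4a2 (0.52 ± 0.17), Col15a1 (0.72 ± 0.13) and Col18a1 (0.62 ± 0.25) were called, the last being a heparan sulfate proteoglycan like perlecan. Without the library labelled PH20_TG1, Col4a2 (0.52) and Col15a1 (0.64) were called, while Col4a1 (0.52) and Col18a1 (0.47) were not. The change differed between the studies for Col4a1 (-0.70 ± 0.30), Col4a2 (-0.72 ± 0.28), Col15a1 (-1.17 ± 0.40) and Col4a4 (1.37 ± 0.51) at an unadjusted p under 0.05 of the interaction term, and these 4 stayed called without PH20_TG1. None of these collagen genes passed an adjusted p of 0.05. Col4a1, at 95.7 to 222 FPKM over the 16 libraries, exceeded Nid1 in mean level (158 against 91.0 FPKM).

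Among 16 tested genes for other basement membrane proteins, 5 were higher and 0 lower in Has2_TG. Ecm1, which binds perlecan and laminin, had a log2 fold change of 1.94 ± 0.27 and the only adjusted p under 0.05 of the lists (limma adjusted p = 0.0384), at 27.8 to 62.8 FPKM in Has2_WT and 106 to 175 in Has2_TG. The others were Ntn4, a netrin that binds the laminin gamma chain (1.71 FPKM on average in Has2_WT and 4.96 in Has2_TG), Fbln1 (1.81 on the log2 scale), Efemp1 (1.35) and Ntn1, another netrin. In PH20_TG the single call was Tinagl1 (0.59, and 0.63 without PH20_TG1), 1 of 16 tested genes and near the share over all genes.

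Receptors, chain enzymes and proteases completed the lists. Of 17 receptor genes 2 were higher in Has2_TG, the syndecan gene Sdc2 (0.71) and Bcam, a receptor for the Lama5 chain (0.42), and 1 was lower, Dag1, the dystroglycan that binds Lama2, perlecan and agrin (-0.34). In PH20_TG 2 were higher, the collagen receptor gene Ddr1 (1.05) and the syndecan gene Sdc1 (0.90). Without PH20_TG1 they had 1.26 and 0.56, Dag1 was also called higher (0.43) and the syndecan gene Sdc3 lower (-0.57). Of 17 enzymes of heparan sulfate chains, Glce was higher (0.43) and Xylt1, which starts the chain, was lower (-1.11) in Has2_TG, and Ext2 was higher in PH20_TG (0.32). Both counts lie near the share over all genes, and without PH20_TG1 Ext2 (0.28) was no longer called while B3gat3 (0.38) was. Of 10 proteases 4 were higher in Has2_TG, Mmp2 (1.48), Mmp14 (1.18), which activates the Mmp2 protein, Mmp9 (0.98) and Bmp1 (1.29), which cleaves laminin and perlecan, and 3 were higher in PH20_TG, Adamts15 (1.20), Adamts9 (0.51) and Ctsl (0.62). Ctsl, a lysosomal protease gene, was at 48.5, 49.0, 47.5 and 50.03 FPKM in PH20_WT and at 133, 72.0, 49.4 and 66.7 FPKM in PH20_TG1 to PH20_TG4. The highest value was that of the library without a Spam1 read, and without it Ctsl had 0.34 and lost its call. Adamts15 (1.08) and Adamts9 (0.51) kept theirs, and Ctss was called lower (-1.15). Median log2 fold changes over the tested genes of each list in the Has2 and PH20 studies were 0.0026 and 0.52 for collagens, 0.39 and 0.16 for other basement membrane proteins, -0.03 and 0.19 for receptors, -0.11 and 0.12 for chain enzymes and 0.42 and 0.16 for proteases. Without PH20_TG1 the medians of the PH20 study were 0.49, 0.17, 0.20, 0.063 and -0.055 in the same order, so that of the proteases changed sign.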

How the data were processed

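iWAT RNA-seq of 16 libraries was analysed from the table of FPKM values deposited by the authors. Per the study's methods the authors aligned reads with STAR 2.7.9a to GRCm38 and counted them per GENCODE gene; DESeq2, FastQC 0.11.9 and MultiQC 1.12 are named in the submitters' notes. FPKM times length and library total gave whole reads for 100% of values within 0.01 reads, with library totals 0.886 to 1.14 times the summed reads. No 2 libraries were alike within sampling noise (120 pairs). Groups followed the labels. Values were tested as log2(FPKM + 0.1), a scale that understates changes of low genes, with limma 3.58.1 (R 4.3.3, trended variance) for genes averaging 50 or more reads in the libraries compared, 8 libraries per study and 16 for the difference of both studies and for the controls. Calls used an unadjusted p under 0.05, as the authors did, with Benjamini-Hochberg adjusted p beside them. Correlations used 100000 permutations of all 16 libraries, without regard to group or study, in Python 3.11.15. Scripts were tested on simulated data. The 10 genes and the lists were chosen with earlier results of these data known. All 10 genes are named, with the 3 genes of smallest p in each list and study, other laminin genes and the basement membrane collagens, the first 3 of a marker list and the 3 genes most alike by Pearson's r. Other called genes of lists with 5 or fewer calls were named after their values were seen. Alternatives included other pseudocounts, filters, scalings, marker covariates, a replicate block and leaving out libraries. Some results of the lists are not reported here.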

Additional observations from a re-analysis of the deposited data

Results flagged for a closer look

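In 5 of 40 sets of 4 libraries (10 genes in 4 groups) one library lay far from the other 3. Chance would place about 1 in 20 normally distributed sets there. The sets share libraries and are not independent, so the count cannot be read as an excess. Has2_WT4 was far above the other Has2_WT libraries for Lamb2 (44.1 FPKM), Lamc1 (54.3 FPKM) and Nid1 (105 FPKM), genes whose levels moved together. PH20_TG3 was far below its group for Lama4 (15.8 FPKM), and PH20_WT2 above its group for Agrn (6.67 FPKM). The change of Lama2 was greater in the Has2 study than in the PH20 study by 1.43 on the log2 scale (limma interaction term, unadjusted p under 0.05, adjusted p = 0.639). In the same values all 4 Has2_TG libraries were above all 4 controls, and the groups of the PH20 study overlapped. The call was kept in 7 of the 16 fits that left out 1 library, and 7.70% of all genes were called by this rule.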

How the results depend on the processing

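Most results kept their direction and their side of the threshold. Lama2 in the Has2 study kept its call under 13 of 14 alternatives, all but the progenitor covariate, whose values did not overlap between Has2_WT and Has2_TG, and Lamc1, Nid1 and Lamb2 under 10 of 14 each. Of the 10 genes, 1 was called higher in the Has2 study with the B cell, the endothelial or the adipose progenitor marker level as a covariate and without the B cell-rich controls, with 2 to 4 when 1 library was left out (2 without Has2_TG4). In the PH20 study 0 were called with voom weights, with the skeletal muscle, B cell or endothelial covariate and without the B cell-rich controls, 3 with the progenitor covariate, and 0 to 5 when 1 library was left out. The difference between studies was called higher for 2 with the muscle covariate, for 0 with the endothelial or progenitor covariate and for 0 to 2 when 1 library was left out, and lower for 1 with the endothelial covariate and for 0 to 2 when 1 library was left out. Between controls, 1 was called higher with the endothelial covariate, and 0 to 1 higher and 0 to 1 lower when 1 library was left out. The cause of these changes was not tested. No gene of the 10 passed an adjusted p under any alternative.

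With the B cell covariate the log2 fold change in the Has2 study was -0.061 for Lama4, -0.091 for Lamb1 and -0.038 for Hspg2, and without the B cell-rich controls -0.056, -0.084 and -0.014. With the endothelial covariate it was -0.22 for Lama4 and -0.13 for Hspg2. With the progenitor covariate it was -0.027 for Lama2, -0.32 for Lama4, -0.045 for Lamb2, -0.083 for Nid1 and -0.088 for Hspg2, and the single call was Lamb1 at 0.75. For Lama2 in the PH20 study it was 0.044 with quantile normalization, 0.37, 0.53, 0.11 and 0.26 with the muscle, B cell, endothelial and progenitor covariates and 0.43 without the B cell-rich controls. The difference between studies was 0.039 with voom weights and 0.022 with the progenitor covariate for Lamb1, and with the latter -0.10 for Lamb2 and -0.025 for Nid1. Between controls it was -0.023 for Lama4, -0.029 for Lamb1 and -0.027 for Agrn with voom weights, -0.067 for Lama4 and -0.045 for Nid2 with the muscle covariate, 0.26 for Lama5, 0.060 for Lamb2, 0.0092 for Lamc1, 0.11 for Nid1 and 0.27 for Hspg2 with the endothelial covariate, and 0.18 for Nid1 with the progenitor covariate. Leaving out 1 library gave -0.031 to 0.28 for Lamb1, -0.42 to 0.20 for Nid2 and -0.0021 to 0.20 for Lama4 in the Has2 study, -0.33 to 0.32 for Lama2 in the PH20 study, -0.24 to 0.072 for Lamb1 in the difference, and -0.18 to 0.079 for Hspg2, -0.060 to 0.25 for Lamb1 and -0.013 to 0.18 for Lama4 between controls.

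Counts over all genes moved past 1.5 times in these cases. Without a minimum of reads, where more genes were tested, 800 were lower in Has2_TG, 736 higher in PH20_TG, 888 lower in the difference and 933 lower between controls. With voom weights 221 were higher in PH20_TG, 763 higher in the difference, and 414 higher and 1099 lower between controls. With covariates, 522 were higher in Has2_TG (endothelial), 187 higher and 107 lower in PH20_TG (muscle), 664 higher in PH20_TG (progenitor) and 450 higher between controls (progenitor). Without the B cell-rich controls 245 were lower in PH20_TG. Leaving out 1 library gave 279 to 655 lower in PH20_TG, 322 to 759 higher in the difference and 458 to 912 higher between controls. With the replicate number as a block, 633 were higher and 669 lower in PH20_TG, against 750 higher and 403 lower in Has2_TG, and no call of the 10 genes in either study changed. Deviations of same-numbered libraries correlated at -0.176 to 0.126 in the Has2 study, and in the PH20 study at 0.346 and 0.421 for numbers 1 and 2 and at -0.0332 and -0.0418 for numbers 3 and 4. Only numbers 1 and 2 of the PH20 study and number 2 of the Has2 study correlated best with their own number, and since not every pair was above 0.1 the numbers were not taken to pair the libraries; the block could not be fitted for the controls. At 14421692 to 26751729 reads a library, each of the 10 genes had 338 reads or more in every library; the part of depth in the width of the intervals was not tested. The fits of the list genes without PH20_TG1 were chosen after seeing the data.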
